A study of Mus musculus with 16 samples.

Results

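The genes described here are 10 genes of transforming growth factor beta (TGF-beta) signalling: the ligand gene Tgfb1, the receptor genes Tgfbr1 and Tgfbr2, the SMAD genes Smad2, Smad3, Smad4 and Smad7, the co-repressor genes Ski and Skil, and the target gene Itgae. They were taken by name from 26089 mouse genes with curated RefSeq transcripts in mm10. Every ChIP-seq peak that overlapped a gene body, or the 30 kb on either side of it, was collected, which gave 401 of the 214352 peaks in 12 lists. Each peak was placed at the gene's own transcription start site (TSS) if it overlapped the 1 kb on either side, at the TSS of another gene, in an exon or intron, or in intergenic DNA.

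The peak lists came from splenic CD8+ T cells of OT1 mice, a line with a transgenic T cell receptor that recognizes a peptide of ovalbumin. The cells were activated for 48 h on anti-CD3 with anti-CD28 and IL-2 and then expanded with IL-2 for 3 days. GSK2879552 (GSK), an inhibitor of the histone demethylase LSD1, was given at 0.5 μM throughout activation and expansion, and control cells received vehicle (Veh). Both groups therefore share the transgenic receptor, the stimulation and the IL-2, and both were cultured cells rather than cells taken from a tissue. Chromatin from each treatment was precipitated with 6 antibodies, to RNA polymerase II (Pol II), to LSD1 and to the histone marks H3K4me1, H3K4me2, H3K4me3 and H3K27ac. Each of the 12 combinations of antibody and treatment held 1 library. The 4 input samples carry no peak list and were not analysed here. In the sample order, LSD1, H3K4me1 and H3K4me2 stand with the first input of each treatment, and H3K4me3, H3K27ac and Pol II with the second. Whether both sets came from the same chromatin is not given in the sources used here. Overlaps between antibodies below may therefore cross preparations.

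TGF-beta is a cytokine that limits the activation and expansion of T cells. It binds a receptor made of Tgfbr2, which captures the ligand, and Tgfbr1, which phosphorylates the transcription factors Smad2 and Smad3. These join Smad4 in the nucleus, where they bind regulatory DNA together with other factors. Ski and Skil bind the SMAD proteins and recruit co-repressor complexes, and Smad7 blocks the receptor. Itgae encodes CD103, the integrin alpha chain that holds CD8+ T cells in epithelium by binding E-cadherin, and it is a well known TGF-beta target in these cells. LSD1 takes methyl groups off H3K4me1 and H3K4me2. H3K4me1 is typical of enhancers, H3K4me3 of active promoters and H3K27ac of active promoters and enhancers.

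As a check of the cell type, all 8 CD8+ T cell marker genes examined, among them Cd8a and Cd3e, carried an H3K4me3 peak at their TSS in both treatments. None of the 2 CD4+ and regulatory T cell, 3 B cell, 4 myeloid or 2 NK cell marker genes did. Over all genes, 50.2% had an H3K4me3 promoter peak in Veh and 51.3% in GSK. Pol II peaks were listed at 4 of the 8 CD8+ T cell marker genes in Veh and 6 in GSK, against 29.4% and 25.0% of all genes. Cd8a and Cd2 had no Pol II peak in either treatment, and nor had the CD4+, B cell, myeloid and NK cell marker genes. The lists ranged from 2751 peaks for GSK H3K27ac to 40272 for GSK H3K4me1. The lists hold no read numbers. Per the study's reporting summary, the libraries were sequenced unequally: the Veh H3K27ac library was much deeper than its GSK counterpart, the GSK H3K4me1 and Pol II libraries were deeper than those of Veh, and the Veh H3K4me2 library was deeper than that of GSK. The LSD1 and H3K4me3 pairs were closer in depth, with Veh the deeper for LSD1 and GSK the deeper for H3K4me3. Whether the lists were called before or after reads were drawn to equal numbers is not given in the sources used here. A gene or site without a peak is one that did not pass the authors' cutoff, which does not show that the protein or mark was absent. With 1 library per treatment no spread between replicates could be measured, so no difference below has a test, and intervals for shares of peaks are Wilson 95% intervals that cover counting error only.

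The LSD1 sites on which the description turns are printed first, as 201 bases of mm10 reference sequence, plus strand, 5′ to 3′, centred on the summit of the LSD1 peak. Capitals mark matches, on either strand, to short motifs of AP-1 (TGANTCA), RUNX (TGTGGT), SMAD (CAGACA, or the palindrome GTCTAGAC), TCF/LEF (CTTTGAT) and ETS (CCGGAAG) factors. Distances are from the gene's TSS, positive in the direction of transcription. The 3 Itgae sites lie in intron 1 and are shown because 2 of them carried an LSD1 peak in Veh cells only.
Itgae +11 kb, peak in Veh only (chr11:73101452-73101652): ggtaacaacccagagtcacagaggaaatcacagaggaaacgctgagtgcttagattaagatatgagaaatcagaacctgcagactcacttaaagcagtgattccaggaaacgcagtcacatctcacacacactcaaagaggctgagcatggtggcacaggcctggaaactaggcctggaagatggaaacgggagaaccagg
Itgae +5.14 kb, peak in Veh only (chr11:73095628-73095828): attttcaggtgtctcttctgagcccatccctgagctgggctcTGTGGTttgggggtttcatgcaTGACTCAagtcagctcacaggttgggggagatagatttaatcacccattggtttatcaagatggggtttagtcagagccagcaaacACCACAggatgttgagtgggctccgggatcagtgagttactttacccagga
Itgae +4.2 kb, peak in both treatments (chr11:73094683-73094883): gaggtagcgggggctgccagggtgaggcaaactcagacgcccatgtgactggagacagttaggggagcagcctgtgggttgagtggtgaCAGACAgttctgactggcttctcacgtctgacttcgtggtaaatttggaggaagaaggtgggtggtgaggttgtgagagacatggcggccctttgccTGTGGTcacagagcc
The Ski sites are the strongest LSD1 peak at any of the 10 promoters, and the single Veh-only LSD1 peak of the Ski locus, which lies in intron 10 of the neighbouring gene Morn1.
Ski −1.05 kb, peak in both treatments (chr4:155223485-155223685): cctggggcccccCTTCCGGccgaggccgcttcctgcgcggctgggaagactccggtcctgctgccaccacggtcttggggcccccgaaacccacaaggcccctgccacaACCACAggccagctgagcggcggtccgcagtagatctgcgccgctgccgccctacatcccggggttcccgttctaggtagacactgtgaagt
Ski +95.8 kb, peak in Veh only (chr4:155126647-155126847): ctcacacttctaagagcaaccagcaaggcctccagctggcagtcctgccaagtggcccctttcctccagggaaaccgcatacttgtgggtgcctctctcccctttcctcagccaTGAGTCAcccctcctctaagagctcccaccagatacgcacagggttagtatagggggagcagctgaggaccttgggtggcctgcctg
The Smad3 sites, both in intron 1, are the strongest LSD1 peak of the locus in Veh cells and the strongest GSK-only LSD1 peak away from TSSs at any of the 10 genes.
Smad3 +25.1 kb, peak in both treatments (chr9:63732827-63733027): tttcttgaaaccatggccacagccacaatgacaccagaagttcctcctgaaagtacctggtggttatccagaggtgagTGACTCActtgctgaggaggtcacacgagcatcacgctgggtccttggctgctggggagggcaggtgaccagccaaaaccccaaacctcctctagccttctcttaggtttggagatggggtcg
Smad3 +31.2 kb, peak in GSK only (chr9:63726647-63726847): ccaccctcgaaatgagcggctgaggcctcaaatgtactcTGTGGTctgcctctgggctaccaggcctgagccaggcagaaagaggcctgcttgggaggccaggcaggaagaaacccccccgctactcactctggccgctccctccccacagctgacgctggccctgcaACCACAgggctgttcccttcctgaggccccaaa

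The promoters of 9 of the 10 genes carried H3K4me3 in both treatments, and 8 of those 9 carried LSD1 in both. With lists cut to equal length, or with a stricter q, 7 genes had a Veh LSD1 promoter peak. Of all 26089 genes, 50.2% had an H3K4me3 promoter peak in Veh and 51.3% in GSK. LSD1 promoter peaks were listed for 36.5% of all genes in Veh and 41.8% in GSK. Those LSD1 shares are over genes with and without H3K4me3. The LSD1 share among genes with an H3K4me3 promoter peak, the closer comparison for the 9 genes, was not computed. Smad7, the inhibitory SMAD, had an LSD1 promoter peak only in GSK cells, and Itgae had no promoter peak in any of the 12 lists. Values at promoters are given as the fold enrichment of the peak over local background. Many are also given as the percentile of that fold among all peaks of the same list. Fold values of separate libraries were not scaled to each other, so where fold stands alone it does not compare the treatments.

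**Figure D1:**
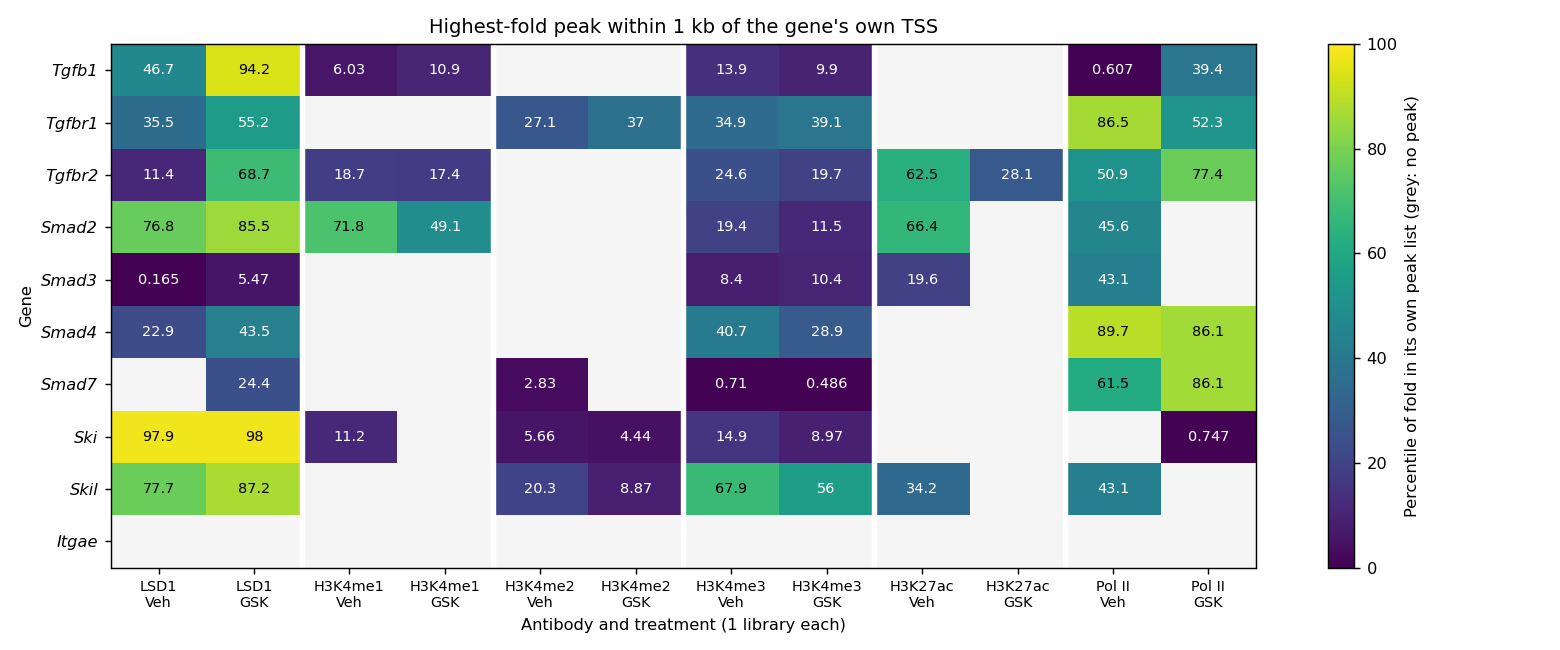
Each cell gives, for 1 gene (rows) and 1 library (columns), the percentile of fold enrichment in its own list of the highest-fold peak that overlapped the 1 kb on either side of the gene's own TSS, and grey marks no peak. Ski sits at the 97.9th and 98th percentile of the LSD1 lists, the Itgae row is empty, and GSK H3K27ac is filled for Tgfbr2 only. The Smad2 H3K4me1 cells come from an alternative TSS of that gene.

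For the ligand gene Tgfb1 (NCBI gene 21803, chr7:25687002-25705077, plus strand), the LSD1 promoter peak had a fold of 4.10 in Veh cells, at the 46.7th percentile, and 7.55 in GSK cells, at the 94.2nd percentile. Its −log10 p was 11.6 in Veh and 35.4 in GSK. The summit lay at +0.866 kb in Veh and +0.874 kb in GSK. Pol II at Tgfb1 was weak in Veh, with a fold of 2.64 at the 0.607th percentile, and had a fold of 3.32 at the 39.4th percentile in GSK. The H3K4me3 fold was 4.04 in Veh and 3.86 in GSK. No H3K27ac or H3K4me2 peak was listed at the Tgfb1 promoter in either treatment.

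The receptor genes followed the same order for LSD1, with the higher percentile in GSK. At Tgfbr1 (NCBI gene 21812, chr4:47353222-47414926, plus strand), the type I receptor kinase, the LSD1 fold was 3.83 in Veh (35.5th percentile) and 4.65 in GSK (55.2nd percentile). Pol II went the other way there, with a fold of 6.34 in Veh and 3.46 in GSK, at the 86.5th and 52.3rd percentiles. At Tgfbr2 (NCBI gene 21813, chr9:116087695-116175363, minus strand), the type II receptor kinase, the LSD1 fold was 3.23 in Veh (11.4th percentile) and 5.19 in GSK (68.7th percentile). Tgfbr2 was the 1 gene of the 10 with an H3K27ac promoter peak in both treatments, with a fold of 4.12 in Veh and 4.51 in GSK. Those folds stood at the 62.5th percentile of the Veh list and the 28.1st percentile of the shorter GSK list.

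Among the SMAD genes, Smad2 (NCBI gene 17126, chr18:76241090-76311748, plus strand) and Smad3 (NCBI gene 17127, chr9:63646766-63757994, minus strand) encode the proteins that the receptor phosphorylates. The Smad2 LSD1 peak had a fold of 5.27 in Veh (76.8th percentile) and 6.25 in GSK (85.5th percentile). These Smad2 peaks overlapped, with summits at +0.54 kb in Veh and −0.194 kb in GSK. The Smad3 promoter had the weakest LSD1 peaks of the set, with a fold of 2.5 in Veh (0.165th percentile) and 3.15 in GSK (5.47th percentile). These Smad3 peaks did not overlap each other, with summits at −0.297 kb in Veh and +0.446 kb in GSK. Smad2 and Smad3 each had an H3K27ac and a Pol II promoter peak in Veh and neither in GSK. In Veh the Pol II fold was 3.82 at Smad2 and 3.74 at Smad3, close to the middle of that list at the 45.6th and 43.1st percentiles.

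Smad4 (NCBI gene 17128, chr18:73634790-73703791, minus strand), the partner that the other signalling SMADs share, had strong Pol II in both treatments. The Pol II fold was 6.84 in Veh and 5.01 in GSK, at the 89.7th and 86.1st percentiles. The Smad4 LSD1 fold was 3.56 in Veh (22.9th percentile) and 4.28 in GSK (43.5th percentile). However, the highest GSK peak, at +0.657 kb, had no Veh counterpart, while a second GSK peak at −0.185 kb overlapped the Veh one. The Smad4 promoter window also holds the TSS of 4930578L24Rik, so a peak there cannot be given to 1 gene.

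Smad7 (NCBI gene 17131, chr18:75367365-75395935, plus strand) stood apart in shape. Its H3K4me3 region was 3961 bp wide in Veh and 4026 bp in GSK, wider than nearly all regions of both lists (99.9th percentile of width). The fold averaged over it was low, 2.33 in Veh and 2.15 in GSK, below the 1st percentile in both. The GSK-only LSD1 peak had a fold of 3.76 (−log10 p 8.47), at +0.330 kb. Pol II at Smad7 had a fold of 4.37 in Veh (61.5th percentile) and 5.01 in GSK (86.1st percentile), and the weak H3K4me2 peak of Veh, with a fold of 3.16, had no GSK counterpart. The lncRNA gene Gm20544, on the opposite strand and pointing away from Smad7, starts within the same window, and a peak there cannot be given to either gene alone.

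Ski (NCBI gene 20481, chr4:155154075-155222535, minus strand) had the strongest LSD1 promoter peak of the set. At −1.05 kb the fold was 9.47 in Veh with a −log10 p of 40.0, and the overlapping GSK peak, at −0.984 kb, had a fold of 9.22 with a −log10 p of 38.7. These lay at the 97.9th and 98th percentiles, so this site differed little in rank between the treatments. The printed sequence holds an ETS and a RUNX motif match and no AP-1 match. A Pol II peak was listed at the Ski TSS in GSK only and stood just above the cutoff, with a fold of 2.5 (−log10 p 3.23). An H3K4me1 peak at −1.21 kb, with a fold of 2.82, was listed in Veh only.

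Skil (NCBI gene 20482, chr3:31095058-31122923, plus strand) encodes SnoN, the relative of Ski. In Veh cells it had separate LSD1 peaks at −0.985 kb and +0.170 kb, the stronger with a fold of 5.33. In GSK cells 1 peak of 2210 bp covered both sites, at the 100th percentile of width (rounded) in that list, with a fold of 6.43. The Veh peak at −0.985 kb was accompanied by H3K27ac, with a fold of 3.65, and by Pol II, with a fold of 3.74. Neither was listed there in GSK. H3K4me3 at Skil had the highest percentile of the set, the 67.9th in Veh and the 56.0th in GSK.

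Across the set, the fold percentile of the LSD1 promoter peak was higher in GSK than in Veh in 8 of the 8 genes with a peak in both lists, with a median difference of 14.6 percentile points. At Ski the percentiles were nearly equal, 97.9 in Veh and 98 in GSK, and the fold was lower in GSK. At Smad3 the Veh and GSK peaks did not overlap, and at Smad4 the highest GSK peak had no Veh counterpart, so those genes compare different sites. At Smad2 the peaks overlapped, but their summits lay apart, at +0.54 kb in Veh and −0.194 kb in GSK. Over all 8348 genes with LSD1 promoter peaks in both lists, the percentile was higher in GSK in 64.4%, with a median difference of 6.23 points. For H3K4me3 the percentile was higher in GSK in 2 of the 9 genes with peaks in both lists, with a median difference of −4.96 points, against 55.2% of all genes and a median difference of 0.541 points. The GSK LSD1 list also had a larger share of its peaks at TSSs, 49.8% against 40.9% in Veh, and how far this moves a percentile was not tested.

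Promoter calls were set beside the same calls over all genes. Of the 8 genes with a Veh LSD1 promoter peak, 0 lacked one in GSK, against 12.2% of all genes with a Veh peak. Of the 9 with a GSK peak, 1 lacked one in Veh (Smad7), against 23.4%. For H3K27ac, 3 of the 4 genes with a Veh peak had none in GSK (Smad2, Smad3 and Skil), against 59.8%, and the 1 gene with a GSK peak had one in Veh, against a GSK-only share of 3.87%. Calls were thus lost over all genes too in the shorter GSK list, and with the Veh list shortened to equal length 1 gene of the set had a Veh H3K27ac promoter peak. For Pol II, 3 of 8 genes had a peak in Veh and none in GSK (the same Smad2, Smad3 and Skil), against 25.0%, and 1 of 6 had a GSK peak and no Veh one (Ski), against 11.8%.

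For H3K4me2, 1 of 4 genes had a Veh peak and none in GSK (Smad7), against 32.8%, and 0 of 3 the reverse, against 6.86%. For H3K4me1, Ski was the 1 gene of 4 with a Veh promoter peak and none in GSK, against 11.3%, and 0 of 3 genes had a peak in GSK alone, against 26.8%. Smad2, which has 3 annotated TSSs, is counted here through an H3K4me1 region at an alternative TSS. That region is not at the Smad2 TSS with the H3K4me3, LSD1 and Pol II peaks. These H3K4me1 numbers rest on the window, since with 2.5 kb on either side 8 genes in Veh and 9 in GSK had a peak and with 0.5 kb 0 did. No gene of the set differed in its H3K4me3 call between treatments, where the shares over all genes were 0.665% for Veh only and 2.88% for GSK only. An empty row such as that of Itgae was shared by 10606 of the 26089 genes, or 40.7%.

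The genes with the most similar promoter rows were named by the mean absolute difference of the 12 percentiles, with 0 for no peak. For Ski they were Dnaaf2 (3.51 points), Tesc (3.55) and Bcr (3.66), and for Skil they were Ano6 (6.06), Coasy (6.19) and Foxk2 (7.07). For Itgae, 10605 other genes had an identical empty row, so none is named.

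Most Veh LSD1 peaks at TSSs of the 10 loci had a GSK counterpart, and about as many of those away from TSSs lacked one as had one. In Veh cells 41 LSD1 peaks were found there and 26, or 63.4% (48.1 to 76.4), were overlapped by a GSK peak, so 15 were not, against a Veh-only share of 45.4% over all LSD1 peaks. At TSSs, including those of neighbouring genes, 13 of 14 Veh peaks had a GSK peak, and the Veh-only share over all LSD1 peaks at TSSs was 17.0%. Away from TSSs, 13 of 27 had one, or 48.1% (30.7 to 66.0), and 14 did not, against 65.1% Veh-only over all such peaks. In the opposite direction, 9 of 34 GSK peaks had no Veh peak, against 42.2% of all GSK LSD1 peaks. This was 5 of 17 at TSSs, against 28.1%, and 4 of 17 away from TSSs, against 56.3%. The GSK peaks away from TSSs were thus overlapped by a Veh peak in 76.5% (52.7 to 90.4) at these loci and in 43.7% over all such GSK peaks. Many of these 17 peaks lie in the same few loci and are not independent, and the difference was not tested. Their median −log10 p was 9.36 for shared and 6.04 for GSK-only peaks, against 8.36 and 4.82 over all such GSK peaks. None of the LSD1 peaks away from TSSs fell in an exon.

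**Figure D2:**
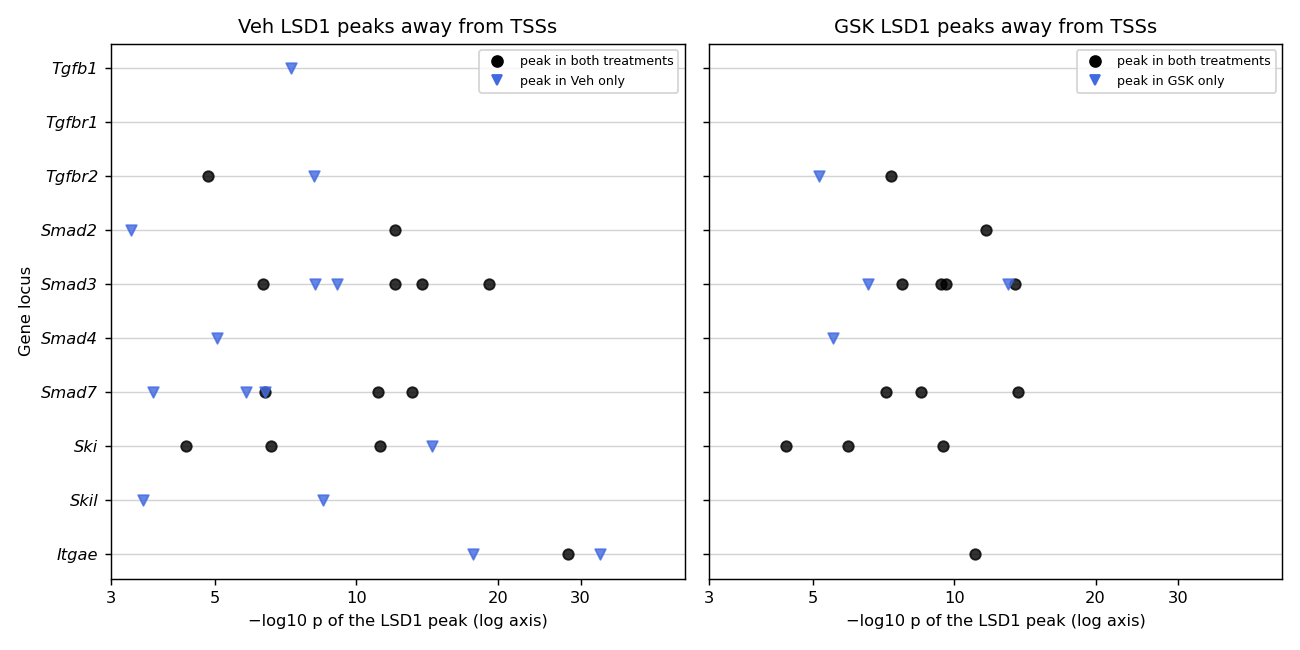
Each point is 1 LSD1 peak away from TSSs, with its −log10 p on a log axis, at the locus of the gene named on the vertical axis. Circles are peaks overlapped by a peak of the other treatment and triangles are peaks of 1 treatment only. The strongest triangle is the Itgae peak at 33.0 in Veh, and Tgfbr1 has no point in either treatment.

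Itgae (NCBI gene 16407, chr11:73090505-73147449, plus strand) had the 2 strongest Veh LSD1 peaks away from TSSs among the 10 genes, although no peak lay at its own TSS. Its 3 sites were in intron 1 of 30. The site at +11 kb had a fold of 10.2 in Veh, at the 98.5th percentile, with a −log10 p of 33.0 that ranked 384th of 21252 Veh LSD1 peaks, and no GSK peak overlapped it. The site at +5.14 kb had a fold of 5.43 (−log10 p 17.7) in Veh and also had no GSK peak. The site at +4.2 kb was listed in both treatments, with a fold of 7.17 (−log10 p 28.2) in Veh and a fold of 4.99 (−log10 p 11.1) in GSK. Its percentile was 93.4 in Veh and 64.2 in GSK, so each of the 3 intron 1 sites ranked lower, or was not listed, in GSK.

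H3K4me1 in Itgae intron 1 had more peaks in GSK. Of the 8 GSK H3K4me1 regions of the locus, 4 had no Veh region, against 24.8% of the whole GSK list. That list was the longer and its library the deeper, and the part of this in the difference was not tested. A region of 1644 bp at +10.7 kb covered the +11 kb LSD1 site in GSK only, as a weak region with a fold of 2.14, at the 1.79th percentile, and a −log10 p of 6.33. Other GSK-only regions lay at +2.09 kb, with a fold of 2.67, and in intron 2 at +14.5 kb, with a fold of 2.41. The region over the other LSD1 sites was present in both, at a fold of 2.56 in Veh and 2.1 in GSK. No H3K4me3, H3K27ac, H3K4me2 or Pol II peak overlapped any of the 3 LSD1 sites in either treatment.

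The H3K4me3, H3K27ac and Pol II peaks of the Itgae locus lay at TSSs of neighbouring genes. Haspin, whose single-exon gene lies inside Itgae, had LSD1 at the 93.6th percentile in Veh and the 95th in GSK, and its H3K27ac and Pol II peaks were listed in Veh only. The shared start of Emc6 and Tax1bp3, at the edge of the locus, held LSD1 at the 99.9th percentile in both. P2rx5 had H3K4me1 in both and no H3K4me3.

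**Figure D3:**
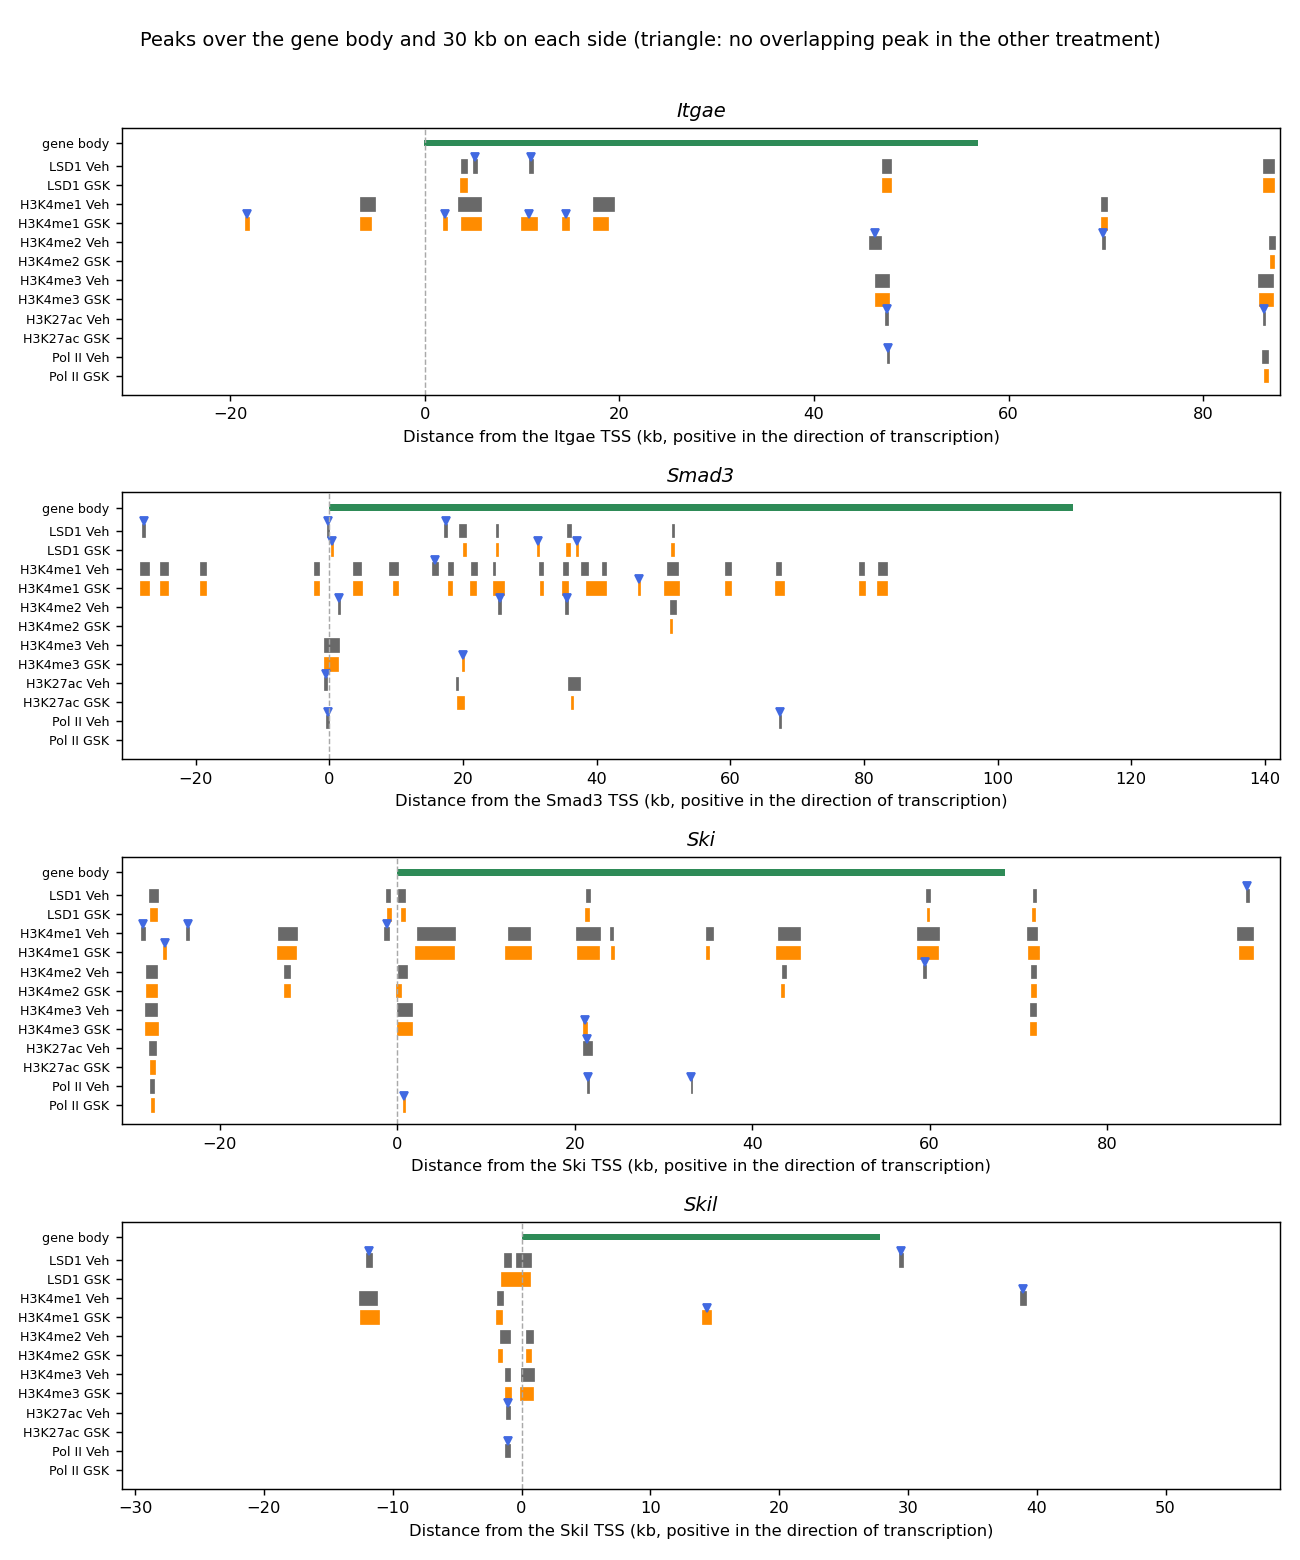
Peaks of the 12 lists (rows, Veh in grey and GSK in orange) over Itgae, Smad3, Ski and Skil and the 30 kb on each side, plotted by distance from the gene's TSS in kb, with the gene body in green. Triangles mark peaks with no overlapping peak in the other treatment. The Itgae start at 0 is bare in all rows, and the LSD1 rows show the Veh-only peaks at +5.14 and +11 kb.

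Smad3 had 6 LSD1 peaks away from TSSs in each treatment, 4 of them shared, the highest number of the set in GSK and equal to that of Smad7 in Veh. The Smad3 locus was also the longest of the set, at 171 kb against 88.6 kb for Smad7. The +25.1 kb site had a fold of 6.60 (−log10 p 19.2) in Veh, and a fold of 4.76 (−log10 p 9.60) in GSK. The +51.4 kb site had a fold of 5.30 in Veh and 6.16 in GSK and carried H3K4me1 and H3K4me2 in both. The +36.0 kb site had a fold of 4.31 in Veh and 3.47 in GSK, and the +20.2 kb site 3.11 in Veh and 4.23 in GSK. The shared sites therefore ranked higher in Veh in some cases and in GSK in others.

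Peaks of 1 treatment were also found on both sides at Smad3. Veh-only peaks lay at +17.4 kb, with a fold of 4, and at −27.8 kb, with a fold of 4.84. GSK-only peaks lay at +31.2 kb, with a fold of 5.19 (−log10 p 13.0), and at +37.0 kb, with a fold of 3.29. At +31.2 kb a Veh H3K4me1 region overlapped the LSD1 peak, and the matching GSK region ended just outside it. The 171 kb of the Smad3 locus held 19 H3K4me1 regions in Veh and 18 in GSK, and the 88.6 kb of the Smad7 locus held 8 in Veh and 12 in GSK.

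Ski had 3 LSD1 sites away from TSSs in both treatments and 1 in Veh only. The Veh-only site at +95.8 kb had a fold of 6.92 (−log10 p 14.5), at the 92.2nd percentile. H3K4me1 covered it in both treatments, with a fold of 3.72 in Veh and 4.25 in GSK. The +21.5 kb site in intron 1 had an LSD1 fold of 4.12 in Veh and 5.22 in GSK. H3K27ac, with a fold of 3.80, and Pol II, with a fold of 4.31, were listed there in Veh only, and H3K4me3, with a fold of 3.77, in GSK only. The +59.9 kb site, also in intron 1, had a fold of 5.40 in Veh and 3.25 in GSK.

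Skil had 2 LSD1 sites away from TSSs, both in Veh only. The site at −11.9 kb had a fold of 5.44 (−log10 p 8.50), and H3K4me1 covered it in both treatments with a fold of 4.03 in Veh and 4.29 in GSK. Of the 201 bases around its summit, 85.6% were marked as repeats in the reference, and the part of this in the call was not tested. The site at +29.6 kb was weak, with a −log10 p of 3.52.

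At Smad7, 3 LSD1 sites were shared and 3 were in Veh only. The −13.5 kb site had a fold of 6.17 in Veh and 6.74 in GSK and carried H3K4me1, H3K4me2 and H3K4me3 in both treatments. The −24.2 kb site had a fold of 3.73 in Veh and 4.23 in GSK, with the same marks and Pol II in both. The intron 3 site at +10.4 kb had a fold of 4.70 in Veh and 3.86 in GSK, and the H3K27ac region over it, with a fold of 3.42, was listed in Veh only. The Veh-only sites, at +17.9, +43.3 and +51.4 kb, had folds of 2.84, 4 and 3.82.

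The remaining genes had few LSD1 sites away from TSSs. Tgfbr2 had an intron site at +52.3 kb in both, whose fold was 3.51 in Veh and 4.73 in GSK. It also had a Veh-only site at −9.72 kb, with a fold of 3.82, and a GSK-only site at +60.9 kb, with a fold of 3.99. Smad2 had an upstream site at −25.7 kb with a fold of 6.76 in both treatments and a weak Veh-only site in an intron. Tgfb1 had a single Veh-only site in intron 5, at +15.4 kb, with a fold of 4.19. Smad4 had a Veh-only site at +60.7 kb, with a fold of 3.79, and a GSK-only site at +80.7 kb, with a fold of 4.08.

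Histone marks over these LSD1 sites were counted for shared and Veh-only sites. Of the 13 shared Veh sites, 11 were overlapped by a Veh H3K4me1 region and 11 by a GSK one (84.6% each), and 3 (23.1%) by Veh H3K27ac. Over all 4383 shared Veh sites away from TSSs, these shares were 64.3%, 67.3% and 22.3%, so the H3K27ac share at these loci was near that of all sites. Of the 14 Veh-only sites, 6 (42.9%) were overlapped by Veh H3K4me1, 10 (71.4%) by GSK H3K4me1 and 0 by H3K27ac of either treatment. Over all 8180 Veh-only LSD1 sites away from TSSs, 39.1% were overlapped by Veh H3K4me1 and 41.7% by GSK H3K4me1. H3K27ac overlapped 7.24% of them in Veh and 1.93% in GSK, so few sites with it would be found among 14 at those shares. The 4 sites with H3K4me1 in GSK and not in Veh were Itgae +11 kb, Tgfbr2 −9.72 kb, Smad7 +51.4 kb and Smad4 +60.7 kb. The GSK H3K4me1 region was weak at the first 3, with folds of 2.14, 1.76 and 2.76, and at Smad4 it was a wider form of a region also listed in Veh, with a fold of 4.08. GSK H3K4me1 was also the longer list, with 40272 regions against 34387, and the part of this in the difference was not tested.

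The motif matches within 100 bases of LSD1 summits were counted as a description. Away from TSSs, 11 of 27 Veh summits at these loci held an AP-1 match, or 40.7% (24.5 to 59.3), against 13.0% of all 12563 such Veh peaks. In GSK it was 4 of 17, or 23.5% (9.56 to 47.3), against 9.95%. The short SMAD motif was held by 10 of 27 Veh summits, or 37.0% (21.5 to 55.8), against 19.0%, and by 5 of 17 GSK summits, or 29.4% (13.3 to 53.1), against 18.7%. RUNX matches were held by 7 of 27 Veh summits (25.9%, against 32.1%) and by 6 of 17 GSK summits (35.3%, against 25.7%). In Veh, ETS matches were held by 1 summit (3.70%, against 2.38%) and TCF/LEF matches by 0 (against 3.32%). The SMAD palindrome was held by none of them and by 0.103% of all such Veh peaks. The Itgae +11 kb window held none of the 6 motifs, the +5.14 kb window held an AP-1 and 2 RUNX matches, and the +4.2 kb window held a RUNX and a short SMAD match. Several sites share a locus, so they are not independent. The motifs were chosen with earlier results of these data known, so the intervals do not serve as a test.

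The other antibodies were compared over the same loci. H3K4me1 had 77 regions in Veh, 8 of them with no GSK region, against 12.2% over the whole list, and 84 in GSK, 15 of them with no Veh region, against 24.8%. Of those 15, Itgae held 4, and Tgfbr2 and Smad7 held 3 each. H3K4me2 had 30 regions in Veh, 14 with no GSK region, against 44.7%, and 16 in GSK, 0 with no Veh region, against 10.8%. For H3K4me3, 0 of 27 Veh regions had no GSK region, against 2.66%, and 3 of 30 GSK regions had no Veh region, against 8.94%. Those 3 were the Ski site at +21.2 kb, the Smad3 site at +20.0 kb and a Smad7 region at +57.4 kb, with folds of 3.77, 3.99 and 3.93.

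H3K27ac had 16 regions in Veh, 11 with no GSK region, against 64.8%, and 5 in GSK, 0 with no Veh region, against 4.98%. The 5 GSK regions lay at Smad3 (2), Tgfbr2, Ski and Tgfb1 (1 each), the last of these at the TSS of Ccdc97 and that of Ski at the TSS of Faap20. Pol II had 22 peaks in Veh, 11 with no GSK peak, against 60.9%, and 19 in GSK, 8 with no Veh peak, against 60.4%. For each of the 6 antibodies and both treatments, the interval for the share of overlapped peaks at these loci included the share of the whole list, as the plot of shared peaks shows.

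**Figure D4:**
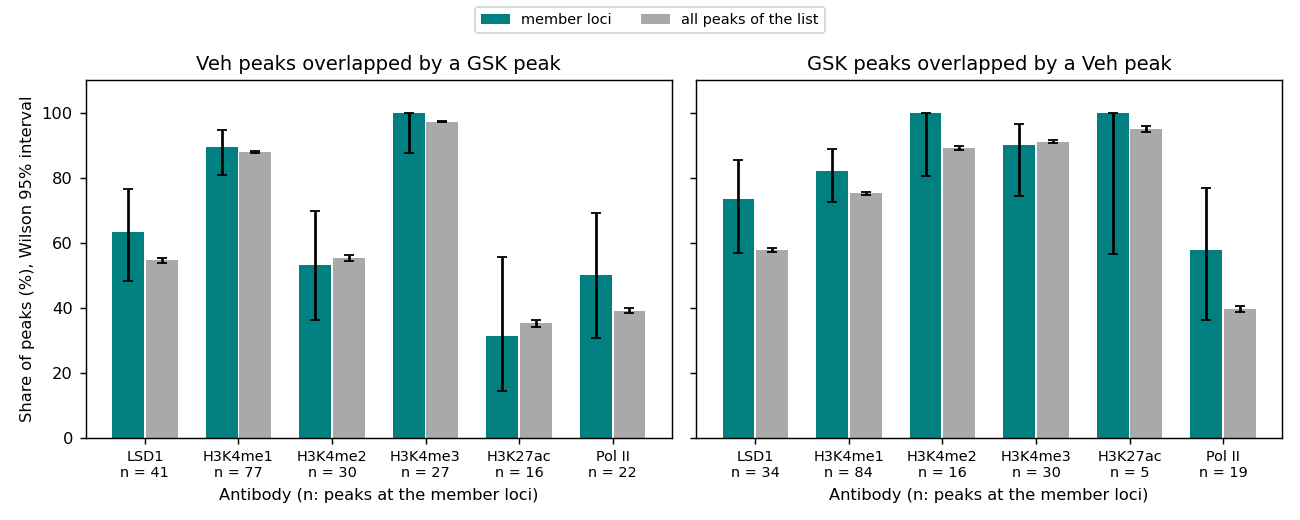
Share of peaks, in percent, overlapped by a peak of the other treatment, for each antibody, with Veh peaks on the left and GSK peaks on the right. Teal bars are peaks at the 10 loci (n under each), grey bars all peaks of the list, and error bars Wilson 95% intervals. For Veh LSD1 the bars stand at 63.4% and 54.6%, and for Veh H3K27ac at 31.2% and 35.2%.

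Genes that start inside the loci had their own peaks. At the Tgfb1 locus, the neighbouring starts of Bckdha and Exosc5 carried LSD1 in GSK only, at the 25.1st percentile, and H3K27ac (99.3rd percentile) and Pol II (89.6th percentile) in Veh only. Tmem91 carried LSD1 in GSK only, at the 35.7th percentile. Ccdc97 carried it in both, at the 95.9th percentile in Veh and the 71.3rd in GSK, and B9d2 in neither, with H3K4me3 and Pol II in both. At the Ski locus, Faap20 had LSD1 at the 63.6th percentile in Veh and the 77.7th in GSK, with H3K27ac and Pol II in both. At the Tgfbr2 locus, Gm4668 had H3K4me1 and H3K4me3 in both, H3K4me2 and H3K27ac in Veh only, and no LSD1.

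The wider pathway was described with 6 gene lists, which overlap the 10 genes. All 12 regulators of receptors and SMAD proteins, among them Smurf1 and Pmepa1, had LSD1 and H3K4me3 at the promoter in both treatments, where 36.5% (Veh) and 41.8% (GSK) of all genes had LSD1 and 50.2% and 51.3% had H3K4me3. The LSD1 counts that follow are read beside the same shares, which are over genes with and without H3K4me3. How these lists stand beside other genes with an H3K4me3 promoter peak was not computed. For the receptors, LSD1 was listed at 10 of 10 in Veh and 9 in GSK, where Eng (endoglin, a co-receptor; Veh fold 4.24) had no peak. For ligands and their activation it was 5 of 11 in Veh and 6 in GSK, where Furin, the protease that cuts the TGF-beta precursor, had a weak peak with a fold of 3.20. For SMAD proteins it was 6 of 8 and 7 of 8, with Smad7 as the difference. For nuclear co-repressors and co-activators it was 6 of 7 and 7 of 7, with the acetyltransferase gene Crebbp, at a fold of 3.57, in GSK only.

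The list of T cell genes known to respond to TGF-beta had lower counts. Of the 6 with a curated transcript, LSD1 was listed at 1 promoter in Veh, that of Rgs2 with a fold of 3.63, and at 0 in GSK, against 36.5% and 41.8% of all genes. H3K4me3 was listed at 2 of 6 in each treatment, against 50.2% of all genes in Veh and 51.3% in GSK. Of all genes with a Veh H3K4me3 promoter peak, 0.665% had none in GSK, and 2.88% of those with a GSK peak had none in Veh. Rgs2 had H3K4me3 in both treatments, Itga1 in Veh only (fold 4.81) and Cd101 in GSK only (fold 3.78). Foxp3 and Itgae were among those with none. H3K27ac was listed at 0 of 6 in both treatments. Of the regulators, 6 of 12 had H3K27ac in Veh and 1 of 12 in GSK. Of all genes, 20.6% had an H3K27ac promoter peak in Veh and 8.61% in GSK, so the GSK counts of both lists were near the share of all genes.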

How the data were processed

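Peak lists of 12 ChIP-seq libraries were used. Per the study's methods, the authors aligned reads to mm10 with Bowtie2, kept those that map to 1 place, dropped duplicates with Samtools, and ran MACS2 on each library separately with input as control (p-value cutoff 0.001). The deposited files for LSD1 and Pol II list narrow peaks with summits. Those for the histone marks list broad regions that start at a −log10 q of about 3. The deposited fold enrichment is a ratio of ChIP signal to local background, averaged over the region in broad lists. The authors' values also include the −log10 of the p-value and of the q-value, and a score that rescales these and was not used here. The study states that its ChIP-seq data are from 1 of 2 repeated experiments.

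Genes and TSSs were the curated RefSeq transcripts of GRCm38.p6 on the chromosomes that hold peaks. Coordinates count the first base as 1. Peaks were shared at an overlap of 1 bp or more, and broad regions were placed by their overlap with TSS windows and otherwise by their midpoint. A promoter took its overlapping peak of highest fold. Sequences came from the RefSeq mm10 genome. The self-test on simulated intervals recovered the known overlaps. Python 3.11.15, pandas 2.3.3 and scipy 1.17.1 were used. With 1 library per group no test was made. The genes, the gene lists and the motifs were chosen with earlier results of these data known. Named were all 10 genes, pathway genes whose LSD1 promoter call differed between treatments, neighbours with a peak at a TSS inside a locus, the 3 nearest rows for Ski, Skil and Itgae, and the strongest LSD1 sites away from TSSs. Other genes of a list, and other peaks of the loci, were named after their values were seen. A further marker list for the cell type check and the values of a gene in the list of TGF-beta-responsive genes are not reported here, although that gene stays in the list's counts.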

Additional observations from a re-analysis of the deposited data

How the results depend on the processing

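Under 7 alternatives, 120 values were recomputed. Of these, 105 moved by less than their counting interval, or by at most 1.5 times for a count of genes. The other 15 moved further. With lists cut to equal length, the share of Veh peaks kept in GSK was 100.0% for LSD1 at TSSs, 75.0% for H3K4me2 and 57.1% for H3K27ac, and the number of genes with a Veh H3K27ac promoter peak was 1. With a stricter q, the H3K4me1 shares were 75.0% for Veh and 68.9% for GSK, the Veh H3K27ac share was 7.69%, the genes with an H3K27ac promoter peak were 2 in Veh and 0 in GSK, and the GSK Pol II share was 77.8%. Counting peaks within 1 kb as shared gave 100.0% for Veh LSD1 at TSSs. With a TSS window of 2.5 kb, 8 genes in Veh and 9 in GSK had H3K4me1, and with 0.5 kb it was 0 in both. The alternatives that asked for an overlap of 50% of the shorter peak, or used a 10 kb extension, moved none of their 14 values each.

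No paired analysis was possible because each antibody and treatment has 1 peak list, and the replicate numbers in the labels belong to input samples without one. Unequal depth between the paired libraries cannot be told apart from the treatment. The H3K27ac promoter difference at Smad2, Smad3 and Skil rests on lists of unequal length.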
